A study of Mus musculus with 6 samples.

Results

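The signalling lymphocytic activation molecule (SLAM) family consists of 9 immunoglobulin-type receptors of blood cells, encoded in the mouse by Slamf1, Cd48, Ly9, Cd84, Slamf6, Slamf7, Slamf8, Slamf9 and Cd244. They were measured by RNA-seq in 6 libraries of bone marrow LSK cells, a gate on Sca-1 and c-Kit among cells without lineage markers, which holds blood stem cells and multipotent progenitors. In 3 control libraries the genotype was Phf6fl-R274X/Y, a floxed R274X allele of the X-linked gene Phf6 in males without Cre. In 3 R274X libraries the genotype was Vav1-Cre; Phf6fl-R274X/Y, so the same allele was joined by a Cre driven by Vav1, a gene active throughout blood cells, and the effect of Cre itself is part of the comparison. The sources used here give no strain or age and no statement on pooling of animals. Nor do they tie each library to an animal of its own, and the error behind every p-value below may thus be technical.

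The members were chosen by name as the whole receptor family, and the family was taken up after the levels of Slamf9, Slamf1 and Cd48 in this same comparison were known. Differences of the members between the groups are therefore given as a description, with no test of their own, and nothing is concluded from how many passed. All 9 were found among the 54532 genes in the files, Cd244 under the symbol Cd244a, and all 9 were among the 14608 genes that passed the count filter. In what follows CPM is the count scaled to library size after TMM normalization, and a gene is said to have passed when its edgeR adjusted p over all tested genes was under 0.05.

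SLAM receptors sit on the surface of blood cells and mostly bind their own kind on a neighbouring cell, except that CD244 (2B4) binds CD48, which is anchored in the membrane by a lipid and has no tail of its own. Most of the others carry tyrosine motifs in the tail that recruit the small adaptors SAP and EAT-2, and through them Src-type kinases such as FYN. In bone marrow the family is best known as a sorting code: long-term stem cells carry CD150, the product of Slamf1, and lack CD48 and CD244, which appear on later progenitors.

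Total counts per library ran from 15406314 to 18106065. Phf6 checked the labels: it stood at 31.77, 29.59 and 33.53 CPM in the controls and at 8.47, 10.25 and 8.29 CPM in the R274X libraries (log2 fold change -1.81, SE 0.123, edgeR adjusted p = 6.67e-06, and exact two-sided permutation p = 0.1, the smallest that 3 against 3 libraries allow). Of the genes that define the gate, Kit fell from 158 ± 12.8 to 96.7 ± 14.8 CPM and Ly6a, which encodes Sca-1, rose from 142 ± 5.07 to 247 ± 15.6 CPM (SD, n = 3 each; edgeR adjusted p = 0.00159 and 5.83e-05). Immunoglobulin transcripts, which an LSK gate should largely lack, made up 0.29% to 1.18% of counts in the controls and 4.45% to 7.95% in the R274X libraries. Neutrophil markers were abundant in the libraries of both groups, with sums given below among the marker lists.

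All members lie on chromosome 1 within 1031.4 kb from 171559193 to 172590568 (GRCm38, the build of the annotation whose exon lengths match the deposited values, although the submitters' processing notes name mm8). A cluster of 7 spans 394.0 kb: Cd244 (171559193 to 171609746), Ly9 (171588624 to 171607410), Slamf7 (171632403 to 171653035), Cd48 (171682009 to 171705258), Slamf1 (171767127 to 171801184), Cd84 (171839697 to 171890718) and Slamf6 (171917515 to 171953170). Slamf9 (172475358 to 172478575) and Slamf8 (172581758 to 172590568) follow after a gap of 522.2 kb.

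Promoter sequences are shown for the 2 members with the widest difference, Slamf9 and Slamf7, and for the 2 of the sorting code, Slamf1 and Cd48, so that genes of 1 region with unlike behaviour can be read side by side. They are the 250 bases before the RefSeq start (GRCm38.p6), 5′ to 3′ on the strand of the gene. Slamf9 is at chr1:172475110-172475359 (plus strand), Slamf7 at chr1:171649000-171649249 (minus strand, a start 4036 bases inside the longest GENCODE span), Slamf1 at chr1:171766882-171767131 and Cd48 at chr1:171681742-171681991 (both plus strand). Capitals mark matches on either strand to GAGGAA (the core bound by PU.1), CAGCTG or CACCTG (E-boxes) and AANNGAAA (the site of interferon regulatory factors), and no matches overlap in these 4 windows.
Slamf9: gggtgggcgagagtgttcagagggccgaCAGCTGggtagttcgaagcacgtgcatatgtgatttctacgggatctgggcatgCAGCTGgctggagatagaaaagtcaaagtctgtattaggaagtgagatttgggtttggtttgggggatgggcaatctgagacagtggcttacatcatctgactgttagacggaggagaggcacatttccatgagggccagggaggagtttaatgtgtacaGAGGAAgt
Slamf7: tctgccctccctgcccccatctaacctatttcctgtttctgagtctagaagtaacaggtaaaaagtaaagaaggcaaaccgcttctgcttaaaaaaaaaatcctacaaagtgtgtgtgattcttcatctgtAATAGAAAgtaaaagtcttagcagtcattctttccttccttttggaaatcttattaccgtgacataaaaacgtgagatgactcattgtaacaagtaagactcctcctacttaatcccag
Slamf1: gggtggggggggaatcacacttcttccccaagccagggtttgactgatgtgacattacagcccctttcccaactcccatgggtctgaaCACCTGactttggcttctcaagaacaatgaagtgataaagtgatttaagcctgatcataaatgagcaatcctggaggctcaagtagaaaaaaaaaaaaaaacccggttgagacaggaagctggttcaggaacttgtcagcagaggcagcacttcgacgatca
Cd48: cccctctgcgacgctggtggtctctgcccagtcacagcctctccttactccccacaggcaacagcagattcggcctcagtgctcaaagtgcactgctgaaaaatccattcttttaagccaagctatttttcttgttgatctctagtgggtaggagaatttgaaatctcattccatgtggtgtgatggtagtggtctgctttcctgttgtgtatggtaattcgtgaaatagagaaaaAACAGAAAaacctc

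The Slamf9 window held 2 copies of CAGCTG, 222 and 168 bases before the start, and GAGGAA 8 bases before it. Slamf7 held AANNGAAA 119 bases before the start, Cd48 held the same motif at 14 bases, and Slamf1 held CACCTG at 162 bases. Among 32851 promoter windows of the same length, 23.3% held GAGGAA, 13.0% CAGCTG, 17.2% CACCTG and 21.3% AANNGAAA, so such matches are found in many genes. Of the other members, Slamf8 held CAGCTG and AANNGAAA, Cd84 held AANNGAAA, and the windows of Slamf6 and Cd244 held none of these letters. The GC content was 38.0% for Slamf7 and between 46.0% and 54.4% for the other members matched, beside a median of 52.4% over all windows.

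Per exon length, the family in control LSK cells was dominated by Cd48. Its deposited FPKM, a level scaled by exon length and library size, was 94.6 ± 4.21 (SD, n = 3), which was 73.5% to 74.5% of the summed FPKM of the 9 genes. Ly9, a self-binding receptor of lymphocytes also called CD229, followed at 14.3 ± 0.549 FPKM, then Cd84 at 8.13 ± 0.488 and Cd244 at 5.58 ± 0.609 FPKM. The ranges of these 4 over the control libraries did not overlap. Slamf7 (1.65 ± 0.952 FPKM), Slamf6 (1.52 ± 0.649), Slamf9 (0.940 ± 0.317) and Slamf8 (0.758 ± 0.0954) came next, and each neighbour in this stretch of the order overlapped the next. Slamf1 was lowest at 0.503 ± 0.0848 FPKM, with a range of 0.410 to 0.575 that did not reach the lowest Slamf8 value of 0.648. Its last place depends on exon length. In CPM, Slamf1 averaged 3.12 in the controls, against 2.35 for Slamf8 and 1.25 for Slamf9. The merged exons of these genes measure 6156, 3079 and 1313 bases.

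In the R274X libraries the order changed in its middle. Cd48 (101 ± 8.24 FPKM, SD, n = 3) and Ly9 (21.4 ± 2.83) still led and Slamf8 (1.86 ± 0.285) and Slamf1 (0.329 ± 0.128) still closed it. Slamf9 moved from place 7 to place 3 at 10.5 ± 2.22 FPKM and Slamf7 from place 5 to place 4 at 9.72 ± 2.36 FPKM, although Slamf9, Slamf7 and Cd84 (8.77 ± 0.306) overlapped from neighbour to neighbour. The summed FPKM of the family was 120.5 to 132.5 in the controls and 150.6 to 177.9 in the R274X libraries, and the share of Cd48 in it was 58.7% to 64.7% in the latter. For Slamf6 the deposited values divide by 10832 bases of merged exons from 7 annotated transcripts.

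**Figure D1:**
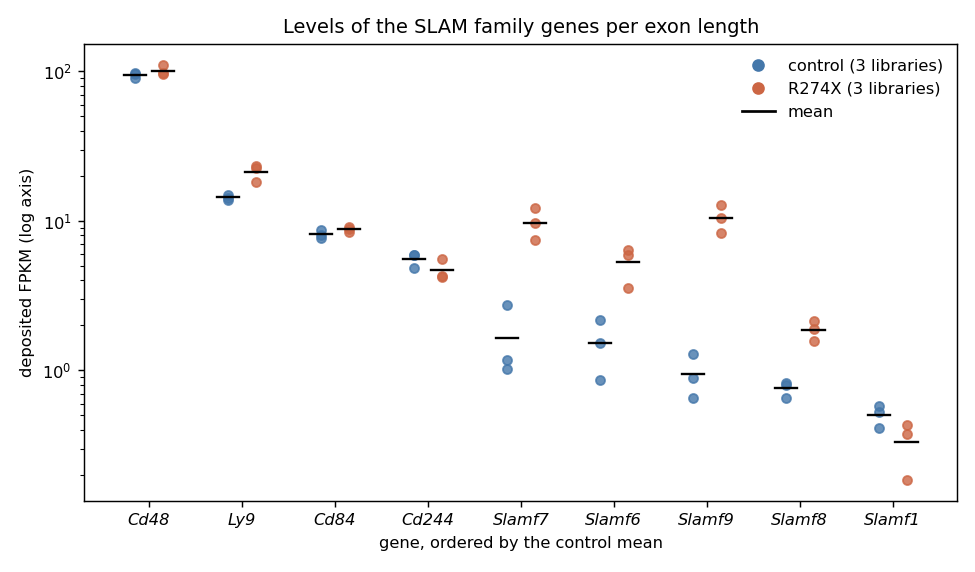
Deposited FPKM of the 9 SLAM family genes on a log axis, ordered by the control mean, with 3 control libraries (blue), 3 R274X libraries (orange) and a black line at each mean. Cd48 stands above all others in both groups, Slamf1 is lowest, and Slamf9 and Slamf7 lie among the lower genes in the controls and beside Cd84 in the R274X libraries.

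Between the groups, 4 of the 9 members passed (44.4%), all of them higher in the R274X libraries, where 17.9% of all tested genes passed, 10.1% higher and 7.89% lower. Of all genes that passed, 56.0% were higher with TMM scaling and 45.9% with upper-quartile scaling, and 4 members passed with either. The groups did not overlap for 5 of 9 members (55.6%), against 37.2% of all tested genes. The median log2 fold change was 0.57 over the members and -0.02 over all tested genes. With edgeR, DESeq2 and limma-voom 0 members passed on the lower side, and 0 did so at an unadjusted p under 0.05. In bulk RNA, fewer cells of a type and less RNA per cell cannot be told apart, which holds for every value below.

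Slamf9 (ENSMUSG00000026548) had the largest fold change of the 9 members. It encodes a receptor with a short tail lacking the adaptor motifs and is known from dendritic cells and macrophages. It measured 1.69, 1.18 and 0.861 CPM in control 1, 2 and 3, from 32, 22 and 16 counts, and 16.88, 13.76 and 10.97 CPM in R274X 1, 2 and 3, from 261, 208 and 164 counts. Every R274X library was far above every control, and the 95% exact Poisson interval of the highest control (1.16 to 2.39 CPM) ended well below that of the lowest R274X library (9.36 to 12.8 CPM), intervals that cover counting error only. The log2 fold change was 3.47 (SE 0.262, 11.1-fold), and the deposited FPKM gave a ratio of means of 11.2.

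Slamf8 (ENSMUSG00000053318), its relative with a similarly short tail, is a receptor of macrophages and other myeloid cells. It stood at 2.01, 2.57 and 2.48 CPM in the controls and at 6.60, 5.82 and 4.82 CPM in the R274X libraries. These values rest on 38, 48 and 46 counts against 102, 88 and 72 counts. All R274X values were above all control values, with R274X 3 the lowest of them, and the log2 fold change was 1.29 (SE 0.241, 2.44-fold).

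Slamf7 (ENSMUSG00000038179), also called CRACC or CS1, is a self-binding receptor of NK cells, plasma cells and activated myeloid cells. It measured 4.71, 5.47 and 12.6 CPM in control 1 to 3 and 44.3, 55.7 and 33.9 CPM in R274X 1 to 3. The groups did not overlap, but the controls spread widely, with control 3 more than the other controls together and a coefficient of variation of 57.3%. The log2 fold change was 2.56 (SE 0.480, 5.88-fold). It passed with all libraries and no longer did so without control 1 (2.29), control 2 (2.35), R274X 1 (2.56), R274X 2 (2.37) or R274X 3 (2.72), nor without a count filter (2.53). Its exons share 423 bases (9.2%) with the antisense gene Gm37787, to which 17 counts in all were assigned, and no source used here says whether the counting used strand.

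Slamf6 (ENSMUSG00000015314), or Ly108, is a self-binding receptor of T, B and NK cells. It stood at 16.7, 9.49 and 23.5 CPM in the controls and at 64.5, 69.0 and 38.4 CPM in the R274X libraries. Again no control reached an R274X library, with control 3 the highest of the one group and R274X 3 the lowest of the other. The log2 fold change was 1.79 (SE 0.441, 3.46-fold), and it did not pass in edgeR. It did pass in DESeq2 (1.80), limma-voom (1.84) and limma on log2 FPKM with a pseudocount of 1 (1.32) or 0.1 (1.77), so its call depends on the test.

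Ly9 (ENSMUSG00000004707) differed by less but with little spread in the controls. Its values were 49.8, 46.5 and 47.3 CPM in the controls and 77.2, 75.4 and 59.9 CPM in the R274X libraries. The groups did not overlap, R274X 3 lay nearest to the controls, and the log2 fold change was 0.57 (SE 0.0987, 1.48-fold). Ly9 lies inside the annotated span of Cd244 on the opposite strand, and the exons of these genes share no base.

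**Figure D2:**
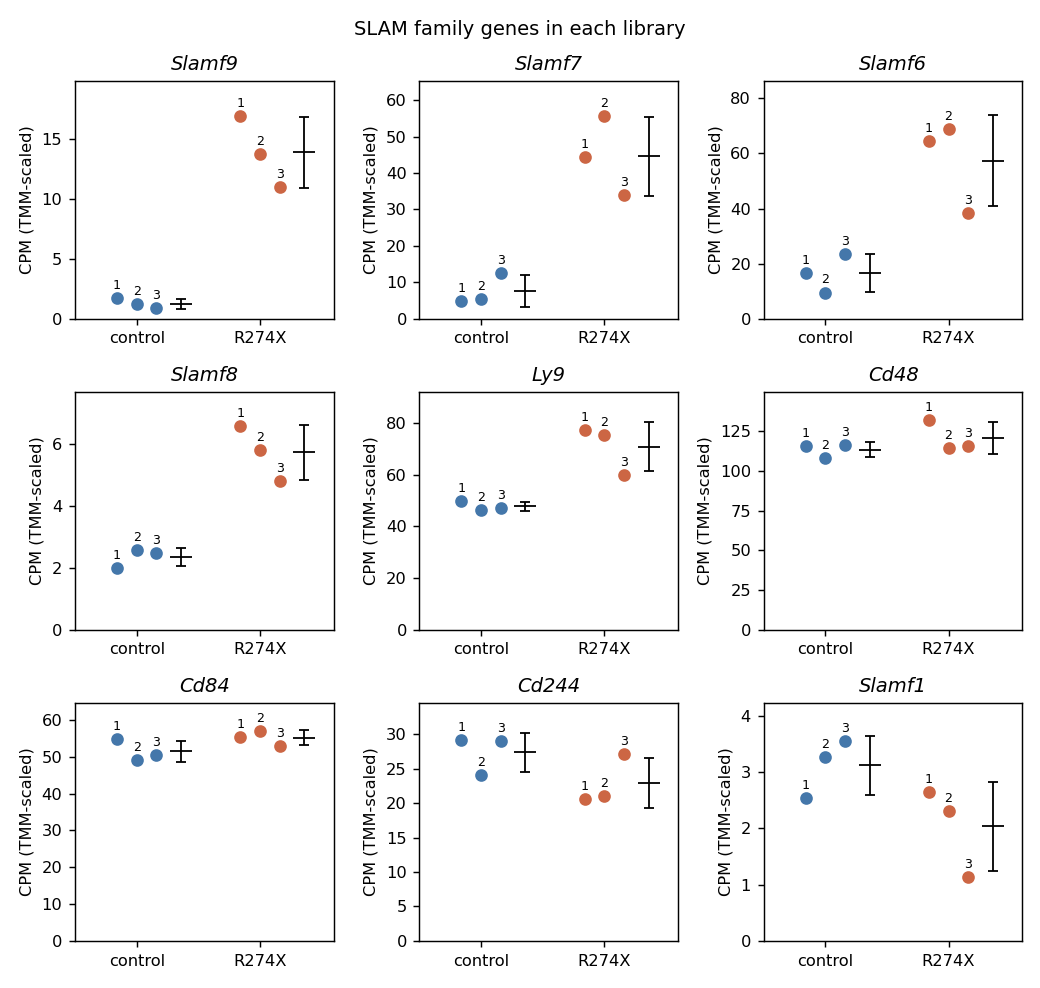
CPM of each SLAM family gene in the 3 control (blue) and 3 R274X (orange) libraries, numbered by replicate, with the mean and SD of each group in black and axes that start at 0. Slamf9, Slamf7, Slamf6, Slamf8 and Ly9 show no overlap between the groups, while Cd48, Cd84, Cd244 and Slamf1 overlap.

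In RNA, the genes of the sorting code showed no difference that passed with all libraries. Slamf1 (ENSMUSG00000015316), which encodes CD150, measured 2.54, 3.27 and 3.55 CPM in the controls and 2.65, 2.32 and 1.14 CPM in the R274X libraries. R274X 1 lay above control 1, so the groups overlapped, and R274X 3 was lowest. These values rest on 48, 61 and 66 counts against 41, 35 and 17 counts. The 95% exact Poisson interval for R274X 3 ran from 0.662 to 1.82 CPM, below those of the controls, while the intervals for R274X 1 (1.90 to 3.60 CPM) and control 1 (1.87 to 3.37 CPM) nearly coincided. The log2 fold change was -0.61 (SE 0.334).

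Cd48 (ENSMUSG00000015355) stood at 116, 108 and 116 CPM in the controls and at 132, 114 and 116 CPM in the R274X libraries (log2 fold change 0.09, SE 0.0781). Apart from R274X 1 the libraries of both groups lay together. The sign of its difference changed with scaling: quantile normalization of log2 FPKM, an alternative added after the data were seen, gave -0.23, past the threshold.

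The ratio of Slamf1 to Cd48 in FPKM is taken within a library and needs no scaling between libraries. It is a ratio of RNA from all cells of the gate, whereas the code is read from surface protein on single cells. Whether it follows the code was not tested. It was 4.24, 5.83 and 5.91 FPKM of Slamf1 per 1000 FPKM of Cd48 in the control libraries. In R274X 1 to 3 it was 3.87, 3.92 and 1.90. Each R274X library was below each control, although R274X 1 and 2 were close to control 1. The means were 5.33 ± 0.943 for control and 3.23 ± 1.15 for R274X (SD, n = 3 each), 1.65-fold lower. Without R274X 3 the ratio of the means, R274X to control, was 0.731 in place of 0.606.

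Cd244 (ENSMUSG00000004709), the receptor for CD48, measured 29.12, 24.12 and 29.01 CPM in the controls and 20.57, 21.03 and 27.09 CPM in the R274X libraries. R274X 1 and 2 lay below every control and R274X 3 among them (log2 fold change -0.26, SE 0.129). Without R274X 3 the log2 fold change was -0.40 and passed. Cd84 (ENSMUSG00000038147), a self-binding receptor of many blood cells including platelets and mast cells, stood at 54.80, 49.09 and 50.44 CPM in the controls and 55.49, 57.01 and 53.05 CPM in the R274X libraries (log2 fold change 0.10, SE 0.0808), where R274X 3 lay below control 1 and the others above it.

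The 5 members without overlap shared the place of R274X 3. That library also stood apart over all genes, with a chi-square per gene of 32.7 against R274X 1 and 43.6 against R274X 2. Between R274X 1 and 2 it was 15.5. Over all genes, 3295 passed without R274X 3, in place of 2621. How many other genes without overlap had R274X 3 lowest was not counted. R274X 3 was the lowest R274X library for Slamf9, Slamf8, Slamf7, Slamf6 and Ly9, and the R274X library nearest to the controls for Cd244. For Slamf1 it was the one farthest from them, at 1.14 CPM against 2.65 and 2.32 CPM in R274X 1 and 2. R274X 3 had the lowest immunoglobulin share of its group, 4.45% against 6.85% and 7.95% in R274X 1 and 2. Of the marker lists given below, its sums were lowest for B cells, plasma cells, macrophages, both dendritic cell types and multipotent progenitors. Its sums were the highest of its group for stem cells, neutrophils, mast cells and basophils, T and NK cells and megakaryocytes. For neutrophils they were 36770 CPM against 21250 and 14030 CPM in R274X 1 and 2. Among the controls, Slamf6 and the immunoglobulin share had the same ranking, with control 3 highest (23.5 CPM, 1.18%) and control 2 lowest (9.49 CPM, 0.29%). The other members without overlap ranked the controls otherwise. Slamf9 was highest in control 1 and lowest in control 3, and Slamf7 was highest in control 3 and lowest in control 1. Slamf8 was highest in control 2 and lowest in control 1, and Ly9 was highest in control 1 and lowest in control 2. With immunoglobulin genes removed before scaling and testing, 4 members passed. That setting leaves every other transcript of the same cells in the counts and so cannot test their part. The part of other cells in these differences was not tested.

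Markers of several mature cells moved with these members. In the counts below, rose, higher, fell and lower refer to markers that passed. Of all tested genes, 10.1% passed on the higher side and 7.89% on the lower. Passed or not, the log2 fold change was positive for 10 of 10 plasma cell, 11 of 11 B cell and 15 of 15 macrophage markers. It was so for 12 of 13 plasmacytoid and 7 of 8 conventional dendritic and 13 of 14 T and NK markers. Among all 14608 tested genes, 6976 were positive. The summed CPM of 10 plasma cell markers was 375 to 957 in the controls and 2144 to 4787 in the R274X libraries, and 6 of 10 rose, with the smallest p for Eaf2 (7.26-fold, edgeR adjusted p = 3.33e-05) and Xbp1 (2.44-fold, 0.000213). For B cells the sum was 325 to 770 and 1429 to 2910, and 6 of 11 tested markers rose, among them Blk (3.44-fold) and Cd22 (3.35-fold). For macrophages and monocytes it was 783 to 1051 and 2291 to 3873, and 9 of 15 rose, with the smallest p for Ly6c2 (2.32-fold) and Fcgr1 (5.62-fold) and folds of the 9 from 1.36 (Ccr2) to 5.85 (C1qb). For plasmacytoid dendritic cells it was 598 to 667 and 874 to 1012, with 9 of 13 higher, among them Bst2 and Ccr9 (1.51- and 1.95-fold), and 1 lower. In conventional dendritic cell markers (30.2 to 38.9 and 49.6 to 56.5) 3 of 8 rose, among them Cd209a and Ccr7 (4.33- and 2.09-fold). In T and NK cell markers 12 of 14 rose and 1 fell, with Klrk1 2.78-fold and Cd3g 4.43-fold higher, although the sums overlapped (196 to 211 and 167 to 230). The gene that fell was Nkg7, from 151 to 88.4 CPM, the most abundant of the list in the controls. Among the 12, Cd3e had 3, 7 and 2 counts in control 1 to 3 and 24, 20 and 10 in R274X 1 to 3. It passed the count filter through the R274X libraries.

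Stem cell markers moved the other way, with 7 of 10 lower, among them Procr (1.82-fold) and Esam (2.01-fold), and sums of 348 to 393 and 223 to 268 CPM. Of 8 markers of multipotent and lymphoid-primed progenitors 5 fell, among them Cd34 (1.54-fold) and Cd27 (1.39-fold), while their sums overlapped (2335 to 2771 and 2403 to 2801 CPM). Of the other 3, the lymphoid genes Il7r and Dntt averaged 25.4 and 847 CPM in the controls and 53.3 and 1281 CPM in the R274X libraries and did not pass. Of 8 megakaryocyte markers 2 fell, among them Gp9 (1.44-fold), with sums of 167 to 225 and 110 to 150 CPM. Among all tested genes 7.89% were called lower. In the 10 neutrophil and 7 tested mast cell and basophil markers 0 passed in edgeR, DESeq2 or limma-voom, with 0 at an unadjusted p under 0.05 in edgeR, 2 and 1 in DESeq2 and 3 and 1 in limma-voom. The neutrophil sums were the largest of any list, 18690 to 31140 CPM in the controls and 14030 to 36770 CPM in the R274X libraries. Those of mast cells and basophils were 115 to 177 and 102 to 208 CPM. Among the neutrophil markers, Elane, Mpo and Prtn3 had log2 fold changes of -0.95, -0.93 and -0.91 and did not pass. The other neutrophil markers ran from -0.01 (Ltf) to 0.28 (Mmp8). No marker of any list was at 0 in all libraries. Passed or not, the log2 fold change was positive for 1 of 10 stem cell, 2 of 8 progenitor and 1 of 8 megakaryocyte markers. It was positive for 6 of 10 neutrophil and 4 of 7 mast cell and basophil markers. With control 1, 2, 3 and then R274X 1, 2, 3 left out, 3, 1, 5, 1, 2 and 8 B cell markers passed, 2, 5, 6, 2, 3 and 6 of plasma cells, 3, 5, 5, 4, 2 and 8 of macrophages, 5, 5, 6, 5, 6 and 10 of plasmacytoid dendritic cells, 2, 2, 3, 1, 2 and 3 of conventional ones, 7, 7, 10, 8, 11 and 10 of T and NK cells and 1, 0, 0, 0, 0 and 4 of megakaryocytes. With DESeq2 and limma-voom, 10 and 10 B cell, 9 and 9 plasma cell, 15 and 14 macrophage and monocyte, 8 and 8 plasmacytoid dendritic cell and 13 and 11 T and NK cell markers passed. With limma on log2 FPKM plus 1, 10 B cell, 9 plasma cell, 13 macrophage and monocyte, 6 plasmacytoid dendritic cell, 7 T and NK cell, 3 progenitor and 1 of the megakaryocyte markers passed. The part of these cells in the differences of the SLAM genes was not tested.

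**Figure D3:**
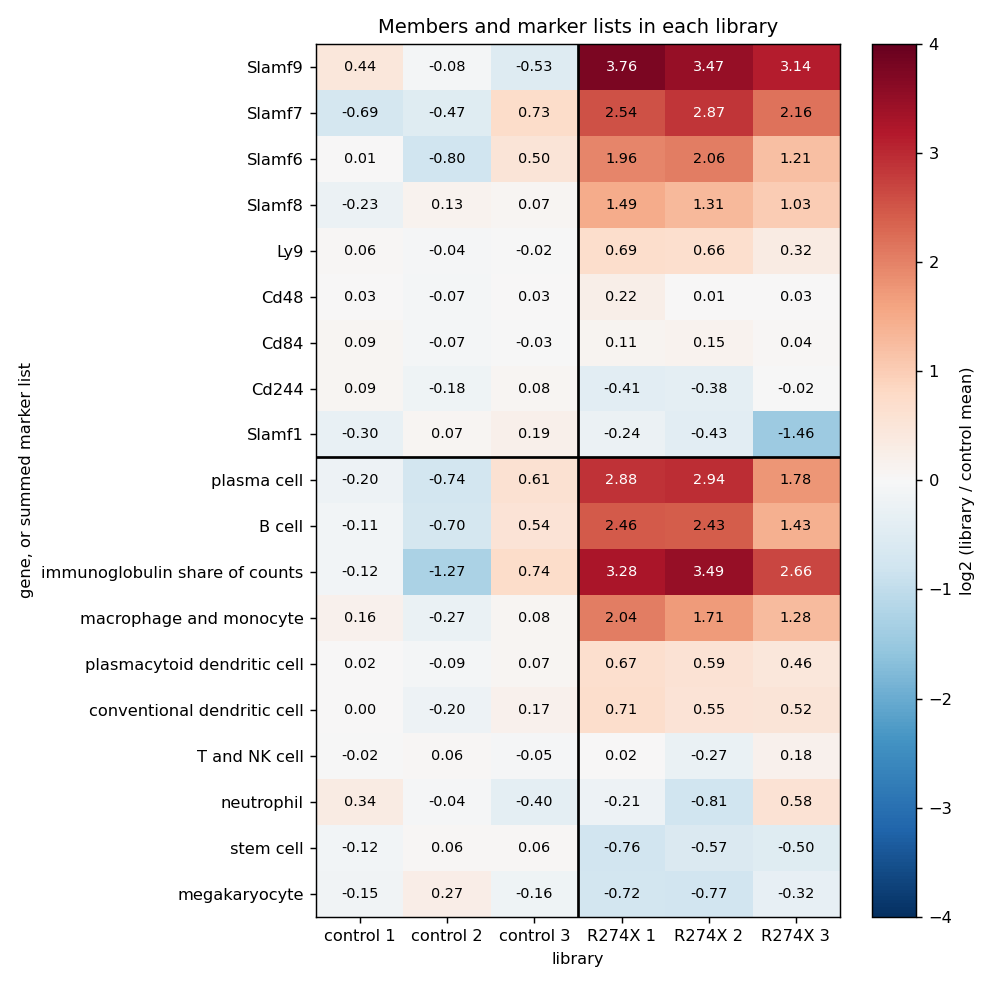
Each cell gives log2 of a library's level over the control mean, for the CPM of the 9 SLAM family genes (upper block) and for summed CPM of marker lists and the immunoglobulin share of counts (lower block), with the 3 control libraries left of the line. Slamf9, Slamf7, Slamf6 and Slamf8 and the plasma cell, B cell and macrophage sums are all above 1 in the 3 R274X libraries, and stem cell and megakaryocyte sums are below 0 in them.

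The genes that receive signals from SLAM receptors inside the cell were not used in choosing the members. Their list was itself chosen with earlier results of these data known. Of the 20 tested, 5 rose and 15 did not pass. Sh2d1a, counted among the 5, entered the test through its R274X libraries, as given below. Among all tested genes, 17.9% passed in either direction and 10.1% were called higher. The median log2 fold change of the 20 listed genes tested was 0.12. In edgeR and DESeq2 0 genes of the list were lower at an adjusted or an unadjusted p under 0.05. In limma-voom 0 were lower at an adjusted p and 1 at an unadjusted p under 0.05.

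Sh2d1a, which encodes SAP, averaged 0.535 ± 0.216 CPM in the controls against 1.92 ± 0.803 CPM (SD, n = 3 each), 3.54-fold higher (log2 fold change 1.83, SE 0.471, edgeR adjusted p = 0.0193). It had 6, 14 and 10 counts in control 1 to 3 and 26, 19 and 42 in R274X 1 to 3, so no control reached an R274X library at this shallow depth. The count filter asks for about 10 counts in 3 libraries, which the R274X libraries reached and the controls as a group did not. The adjusted p of Sh2d1a is therefore given as a description only. Without control 1, control 3, R274X 1 or R274X 3 its log2 fold change was 1.55, 1.82, 1.91 and 1.45 with an edgeR adjusted p of 0.0812, 0.0522, 0.0562 and 0.0737. Sh2d1b1, which encodes the adaptor EAT-2, went from 2.53 ± 0.317 to 6.60 ± 0.983 CPM (SD, n = 3 each), a rise of 1.38 on the log2 scale (SE 0.229, edgeR adjusted p = 0.00191). It was above every control in every R274X library (7.502, 6.745 and 5.552 CPM against 2.382, 2.894 and 2.315 CPM). The neighbouring gene Sh2d1b2 was not tested, with mean CPM of 0.0536 and 0.110.

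Among the kinases, Fyn, which SAP brings to the receptors, rose by 0.59 on the log2 scale (54.5 ± 3.55 against 81.9 ± 8.14 CPM, SD, n = 3 each; edgeR adjusted p = 0.00127), higher in 3 of 3 R274X libraries. Lyn, another Src-type kinase, rose 1.17-fold (edgeR adjusted p = 0.0450) and lost the threshold when any library was left out (edgeR adjusted p from 0.0625 to 0.179). Uvrag, a partner of Beclin-1 in vesicle traffic, rose 1.26-fold (edgeR adjusted p = 0.0341) and lost it without control 1 (0.145), control 2 (0.137), R274X 1 (0.0694) or R274X 2 (0.155). The phosphatases did not pass: Ptpn6 (SHP-1) stood at 263 ± 9.25 and 267 ± 23.1 CPM, Ptpn11 (SHP-2) at 69.0 ± 1.58 and 61.6 ± 4.04 CPM and Inpp5d (SHIP-1) at 161 ± 8.43 and 176 ± 14.3 CPM (SD, n = 3 each). Lck, Fgr, Csk, Plcg1, Plcg2, Prkcq, Grb2, Ap2m1, Arhgef7, Becn1 and Pik3c3 did not pass either, with log2 fold changes from -0.26 (Prkcq) to 0.40 (Fgr).

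The number of passing genes in this list was 2, 3 and 3 without control 1, 2 and 3 and 2, 4 and 3 without R274X 1, 2 and 3. SAP is best known from T and NK cells and EAT-2 from NK cells and other innate cells. Of the 14 listed T and NK cell markers 12 rose in the R274X libraries, beside 10.1% of all tested genes called higher. The 12 include Cd3e, which passed the count filter through its R274X libraries. Nkg7 fell, and the summed CPM of that list overlapped between the groups (196 to 211 in the controls, 167 to 230 in the R274X libraries). The part of such cells in the rise of the adaptors was not tested.

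**Figure D4:**
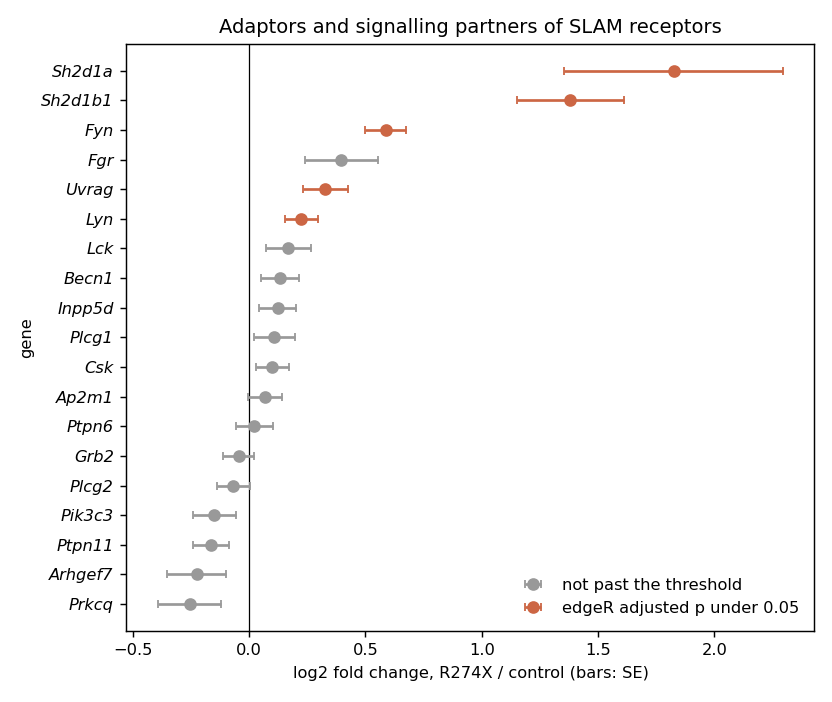
Log2 fold changes, R274X over control, of tested adaptors and signalling partners of SLAM receptors, with bars of 1 SE from edgeR and orange for genes with an adjusted p under 0.05. Sh2d1a and Sh2d1b1 stand apart at the top, Fyn, Uvrag and Lyn also pass, and the other genes shown lie between -0.26 and 0.40.

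In log2 fold change, R274X over control, genes that differed widely and genes that did not were interleaved within the cluster: Slamf7 (2.56) lies between Ly9 (0.57) and Cd48 (0.09), and Slamf6 (1.79) follows Cd84 (0.10). Of the other protein-coding genes from 250 kb before the first to 250 kb after the last member, 24 of 33 were tested, and 3 rose and 1 fell (16.7% passing, against 17.9% of all tested genes). Their median log2 fold change was -0.09. Kcnj10, which encodes a potassium channel and lies between the cluster and Slamf9, rose 5.08-fold, from 2.07, 1.39 and 1.88 CPM in the controls to 12.3, 9.13 and 5.82 CPM in the R274X libraries (log2 fold change 2.35, SE 0.292, edgeR adjusted p = 0.000391). As with the 5 members without overlap, R274X 3 was the lowest R274X library. Pea15a, a phosphoprotein that binds death effector domains, rose 1.59-fold and Igsf8, an immunoglobulin-type membrane protein, 1.32-fold (edgeR adjusted p = 0.00561 and 0.00701). F11r, which encodes the junction molecule JAM-A, fell 1.35-fold (edgeR adjusted p = 0.0176) and lost the threshold without control 2 (log2 fold change -0.38, edgeR adjusted p = 0.0745), R274X 1 (-0.41, 0.0665) or R274X 2 (-0.44, 0.0520). The nearest gene before the members, Itln1, had 0 counts in all libraries, and the nearest one after them, Fcrl6, was too low to test (10, 0 and 2 counts in control 1 to 3, 12, 8 and 9 in R274X 1 to 3).

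**Figure D5:**
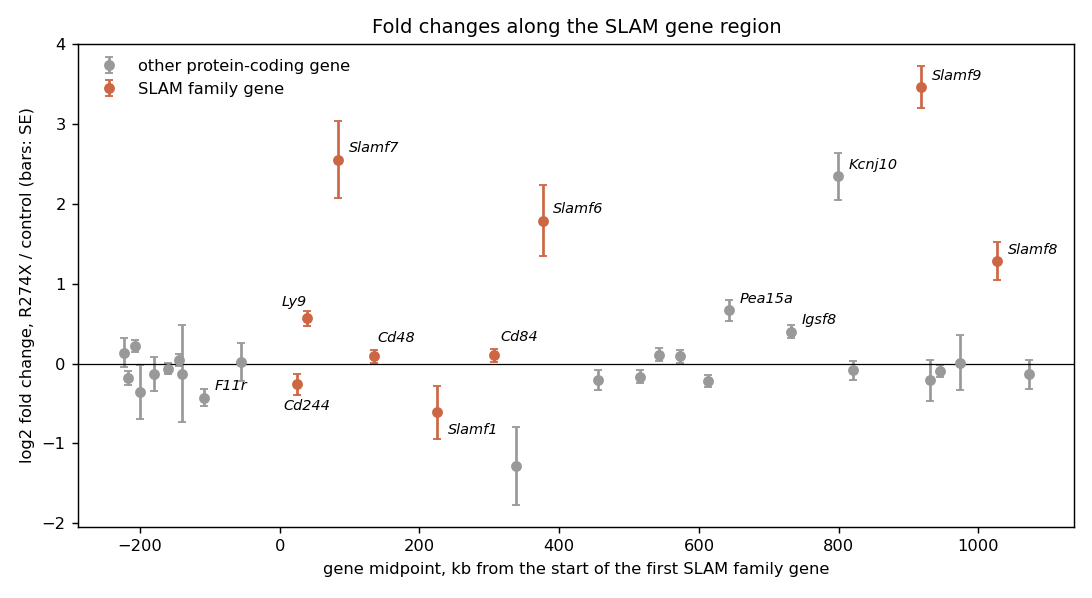
Log2 fold change, R274X over control, with bars of 1 SE, for SLAM family genes (orange) and the other tested protein-coding genes (grey), placed by distance in kb from the start of the first member. Slamf7, Slamf6, Slamf9 and Slamf8 rise above a row of genes near 0, with Kcnj10 at 2.35 between the cluster and Slamf9.

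Over the 6 libraries, genes were ranked by how closely their log2 of CPM plus 1 followed each of Slamf9, Slamf1 and Cd48. The added 1 weighs most on low levels, such as those of Slamf1 and of Slamf9 in the controls. The closest were taken from 10114 genes, leaving out members and immunoglobulin genes. For Slamf9 they were Kifc1 and Rhob (Pearson r = 0.996 each), Edem1 and Tmem106a (0.995 each) and Cib1 (0.994). The libraries fall into the 2 groups compared, and 915 genes (9.05%) had an r over 0.9 with Slamf9. For Slamf1 they were Gpsm1 (r = 0.991), Maml2 (0.985), Xrcc5 (0.984), Zfp369 (0.979) and Tlcd2 (0.976), and 79 genes (0.781%) had an r over 0.9. For Cd48 they were Prdx3 (0.989), S100a10 (0.986), Ccdc12 (0.980), Relb (0.978) and Znrd1 (0.978), with 135 genes (1.34%) over 0.9. These values are descriptions over libraries that share their scaling.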

How the data were processed

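For each library the authors deposited raw counts (whole numbers) and FPKM values by Ensembl gene. The submitters' processing notes list Bowtie and mm8, and no source used here names the counting tool, its strand setting or the annotation. Per the labels' protocols, TRIzol RNA was made into Illumina TruSeq libraries. Implied exon lengths matched GENCODE M21 (GRCm38), whose coordinates are used. The deposited FPKM values are scaled by library sizes other than the raw totals (0.92 to 1.10 times them). Replicate libraries differed by more than sampling noise (chi-square per gene at least 11.2).

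Counts were tested with edgeR 4.0.16 in R 4.3.3 (TMM, filterByExpr, robust quasi-likelihood, Benjamini-Hochberg over all tested genes). The script was checked on simulated data. Alternatives were DESeq2 1.42.0, limma-voom (limma 3.58.1), RLE and upper-quartile scaling, no filter, immunoglobulin genes removed, each library left out, and limma on log2 of FPKM plus 1 or 0.1 (mean FPKM of at least 0.5). Quantile normalization was added after the data were seen.

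Members and lists were chosen with earlier results of these data known. Named were all members, passing adaptor and neighbouring genes with the 3 adaptors and the nearest neighbours, up to 2 passing genes of the smallest p per marker list, and 5 genes most like Slamf1, Cd48 and Slamf9 (mean of at least 5 CPM, with predicted and RIKEN symbols passed over). The genes C1qb, Ccr2, Il7r, Dntt, Nkg7, Cd3e, Elane, Mpo, Prtn3, Ltf and Mmp8 were named after their values were seen. The 11 marker lists covered stem cells, multipotent and lymphoid-primed progenitors, B, plasma, plasmacytoid and conventional dendritic, macrophage and monocyte, T and NK, neutrophil, mast and basophil, and megakaryocyte cells. Promoter sequences are from RefSeq (GRCm38.p6), where 8 of 9 members matched. A few list genes are counted but not reported here by name.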

Additional observations from a re-analysis of the deposited data

How the results depend on the processing

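The count of passing genes was 2621, and it was 1581 and 1532 with limma on log2 FPKM plus 1 and plus 0.1, and 1218 to 3295 when 1 library was left out, where leaving out control 1 gave 1462, control 2 gave 1242, R274X 1 gave 1218 and R274X 2 gave 1340. The count of SLAM members that passed was 4, between 3 and 6 over all alternatives. Slamf9, Slamf8 and Ly9 passed under all 15 alternatives, with log2 fold changes of 2.53 to 3.74, 0.68 to 1.40 and 0.43 to 0.67. Slamf7 kept its direction (2.02 to 3.12), as did Slamf6 (1.302 to 2.12), Slamf1 (-0.85 to -0.33, in the 12 alternatives that tested it), Cd244 (-0.40 to -0.19) and Cd84 (0.05 to 0.14). Cd48 reversed with quantile normalization of FPKM (-0.23). Members that passed on the lower side were Cd48 there and Cd244 without R274X 3. The share of passing genes that were higher was 56.0%, and 45.9% with upper-quartile scaling. With limma on log2 FPKM plus 1 it was 62.9%, and 36.7% of 1807 genes when those values were quantile-normalized. The adaptor and signalling list had 5 passing genes, 2 with either FPKM fit, 3 with limma-voom and 3 with upper-quartile scaling, 4 of which 2 were lower with quantile normalization, and 2 to 4 with 1 library left out. Passing neighbours numbered 3 to 6. The causes were not tested. No paired analysis was possible because the labels give the groups no shared replicate numbers. The depth limits Slamf1, Sh2d1a and the control levels of Slamf9, Slamf8 and Sh2d1b1, which rest on 6 to 66 counts per library.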

Other observations

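Inside the SLAM cluster, between Cd84 and Slamf6, the annotated protein-coding gene Gm10521 was measured at 1.75, 1.39 and 1.40 CPM in control 1 to 3 and 0.259, 0.529 and 1.07 CPM in R274X 1 to 3. It did not pass (log2 fold change -1.29, edgeR adjusted p = 0.08635), its counts were 33, 26 and 26 against 4, 8 and 16, and it was chosen after its values were seen.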
